A study of Mus musculus with 6 samples.

Results

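CD40 is a receptor of the tumour necrosis factor receptor superfamily on B cells, and its ligand is carried mainly by helper T cells. When CD40 is engaged, TRAF adaptors activate the canonical and the non-canonical arm of NF-kB, and B cells switch on chemokines, cytokine subunits, adhesion molecules, kinases and inhibitors that end the signal. In the spleen this dialogue is required for germinal centres, where B cells compete for help from T cells. The values described here are those of 10 such genes: the chemokines Ccl22 and Ccl17, the cytokine subunit Ebi3, the secreted enzyme Il4i1, the receptor Tnfrsf9, the adhesion molecule Icam1, the NF-kB inhibitor Tnfaip3, the kinase Pim1, the stress-response gene Gadd45b and the transcription factor Batf. They were taken by name from the 35275 genes of the deposited table, and all 10 were found in it.

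The series holds 6 RNA sequencing libraries of B cells isolated from spleens with a magnetic pan B cell kit, 3 from wild-type (WT) mice and 3 from CD40LΔ5 mice, which carry an altered CD40 ligand that the labels do not describe further. The strain is given as C57BL/6 for both groups, the age as 6 to 8 weeks, and every mouse had received sheep red blood cells (SRBC), an antigen that needs T cell help, and was sampled on day 8. No uninjected mice and no cells stimulated through CD40 are among these samples, so whether the 10 genes were induced through CD40 could not be checked here. It is not stated that every library is a separate mouse, so p-values measure only the spread between these libraries.

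Expression is given as FPKM, reads scaled by gene length and by the reads on genes, and the libraries held 24320080 to 27866611 reads on genes. The 5 B cell markers examined summed to 4107 to 4759 FPKM in every library. The authors' deposited table of group means does not follow the labels. Its MUT column is the mean of the libraries labelled WT replicates 1 and 2 and CD40LΔ5 replicate 2, and its WT column that of WT replicate 3 and CD40LΔ5 replicates 1 and 3, so that the 2 sources placed only 2 libraries alike. Results for the 10 genes are therefore given by the labels and by the sets of that table, and a library keeps the name of its label throughout. Both groupings use the same 6 libraries, so they are not independent of each other.

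Ccl22 and Ccl17 are neighbours on chromosome 8, with 58753 bases between the end of Ccl22 and the start of Ccl17. Their promoters are shown because the values of these neighbours ordered the libraries differently, but Ccl17 rests on only 6 to 13 reads per library. Any link between these sequences and the levels was not tested. The sequences are from RefSeq on GRCm38.p6, on the strand of the gene and 5′ to 3′. The stretch of Ccl22 is chr8:94745434-94745589 on the plus strand (156 bases, ending before the gene listed in the files). That of Ccl17 is chr8:94810203-94810452 on the plus strand (250 bases). Capitals mark matches, on either strand, to a loose form of the kappa B motif of NF-kB (GGG and CC with any 5 bases between) or to a STAT motif (TTC and GAA with any 4 bases between). Matches can overlap each other.
Ccl22: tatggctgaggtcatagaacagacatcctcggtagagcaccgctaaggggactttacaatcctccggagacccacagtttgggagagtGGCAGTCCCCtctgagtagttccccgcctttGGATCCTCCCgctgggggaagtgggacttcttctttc
Ccl17: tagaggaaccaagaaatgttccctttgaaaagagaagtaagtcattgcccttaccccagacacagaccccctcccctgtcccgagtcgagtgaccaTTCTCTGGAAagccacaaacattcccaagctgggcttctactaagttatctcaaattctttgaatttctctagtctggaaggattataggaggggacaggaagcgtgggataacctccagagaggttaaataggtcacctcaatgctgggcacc
The Ccl22 stretch holds a pair of kappa B matches, both on the opposite strand, and the Ccl17 stretch holds 1 STAT match and no kappa B match. In the 250 bases before each start, the loose kappa B motif was found in 8 of the 13 RefSeq promoters of the 10 genes, and in 45.8% of all 32851 promoters. The STAT motif was found in 2 of the 13, those of Ccl17 and Tnfaip3, and in 5.85% of all promoters. A match describes letters in this window and is not a measured binding site.

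The stricter kappa B consensus, which sets purines and pyrimidines at inner positions, was found before the starts of 3 of the 10 genes, Tnfrsf9, Tnfaip3 and Ebi3. It was present in 3 of their 13 promoters and in 7.25% of all promoters. The windows of 30 bases around these matches show how the sites differ, with the match in capitals, on the strand of the gene.
Tnfrsf9: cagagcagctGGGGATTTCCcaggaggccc
Tnfaip3, distal: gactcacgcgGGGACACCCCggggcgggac
Tnfaip3, proximal: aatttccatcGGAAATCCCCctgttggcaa
Ebi3: gccccttcctGGGGCTTCCCcgttggccat
The Tnfrsf9 window is chr4:150927946-150927975 on the plus strand, 43 to 34 bases before the downstream of its 2 RefSeq starts, and a further match overlaps it, shifted by 1 base. The Tnfaip3 windows are chr10:19015516-19015545 and chr10:19015403-19015432 on the minus strand, with matches 125 to 116 and 12 to 3 bases before the start. The Ebi3 window is chr17:55952569-55952598 on the plus strand, with its match 44 to 35 bases before the start. The Tnfaip3 and Tnfrsf9 windows lie within the spans that the deposited table lists for these genes. An AP-1 motif, TGANTCA, to which Batf dimers and other AP-1 factors bind, was found in 2 of the 13 promoters, those of Tnfaip3 and the downstream one of Tnfrsf9, and in 6.75% of all promoters.

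The 10 genes spanned more than 2 orders of magnitude in level per length. Il4i1 stood highest with a mean of 143 FPKM over the 6 libraries, above 95.9% of the 11252 genes tested, those that averaged 1 FPKM or more. Gadd45b (32.8 FPKM), Pim1 (31.1) and Icam1 (24.9) followed, with ranges over the libraries that overlapped from one to the next. Batf (16.3 FPKM), Tnfaip3 (9.29) and Ebi3 (4.36) came after them, each with a range apart from that of its neighbours in the order. Ccl22 (1.63 FPKM), Ccl17 (0.663) and Tnfrsf9 (0.549) stood lowest, and their ranges overlapped in turn. The chemokines and Tnfrsf9 were thus present at low levels in these unfractionated B cells, and Ccl17 and Tnfrsf9 lay under the mean of 1 FPKM needed for the test across genes.

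**Figure D1:**
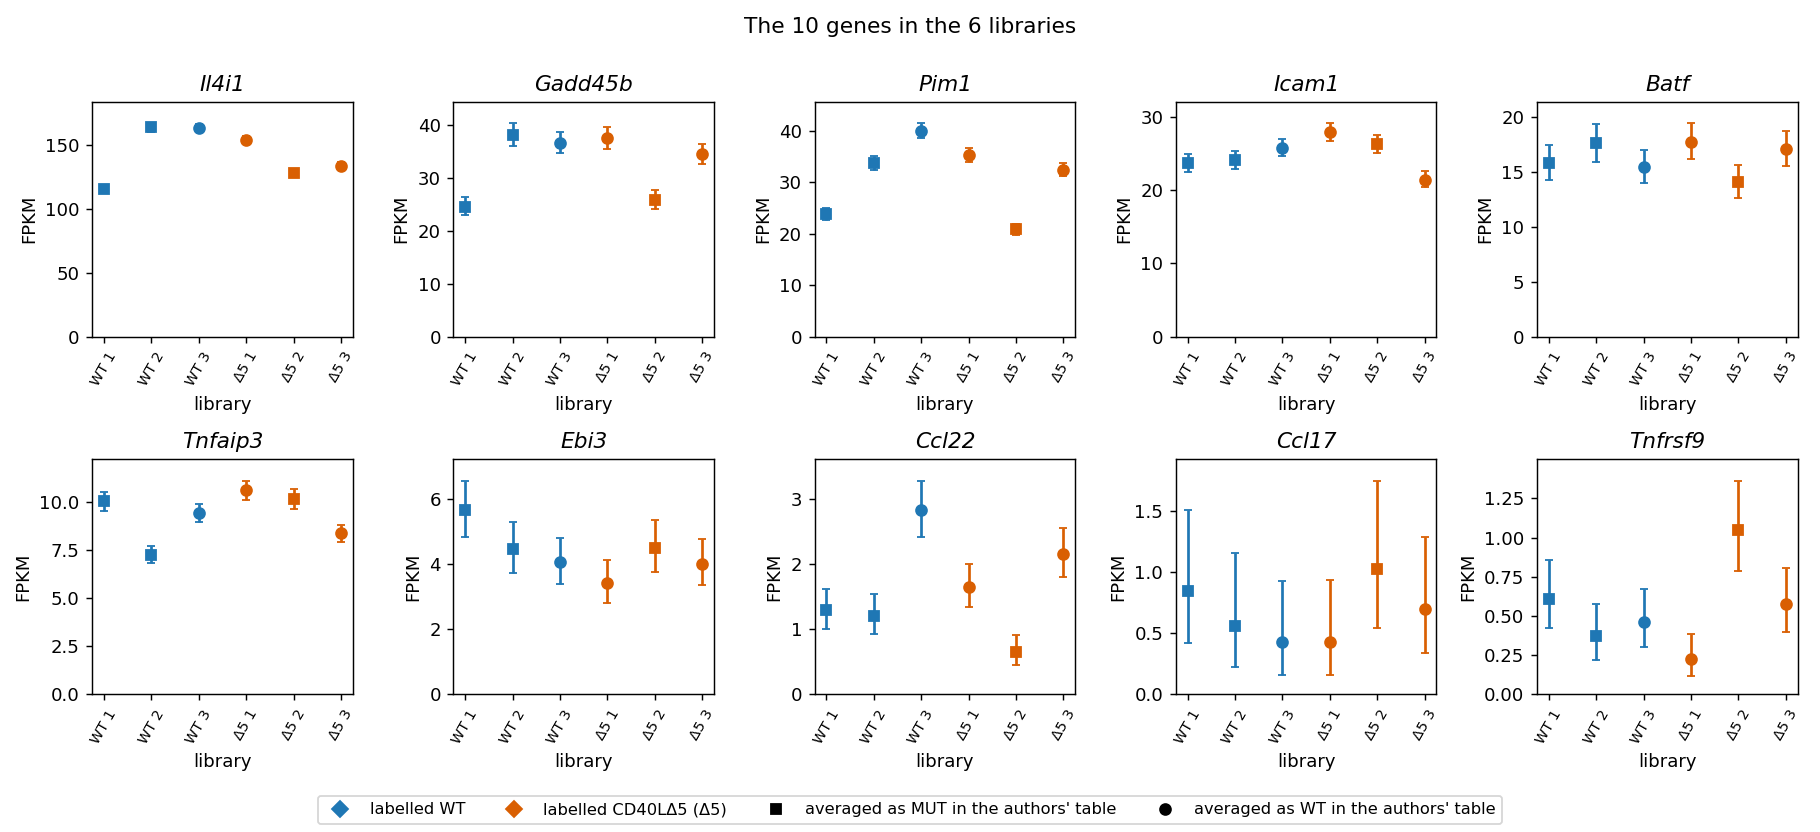
Level in FPKM (vertical axes, from 0) of each of the 10 genes in each library (horizontal axes; colour, label; shape, set in the authors' table), with exact Poisson 95% intervals that cover counting error only. Il4i1, Gadd45b and Pim1 are lowest in WT replicate 1 and CD40LΔ5 replicate 2, while the intervals of Ccl17 overlap in all libraries.

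Ccl22 encodes a chemokine that attracts cells bearing CCR4, among them helper and regulatory T cells (ENSMUSG00000031779, chromosome 8, 94745590 to 94751699, plus strand). It stood at 1.29, 1.21 and 2.83 FPKM for WT replicates 1 to 3, and 1.64, 0.654 and 2.15 FPKM for CD40LΔ5 replicates 1 to 3. WT replicate 3 was the highest and CD40LΔ5 replicate 2 the lowest, 4.33-fold apart, and the labelled groups overlapped. These values rest on 36 to 173 reads, and the exact Poisson 95% intervals of these extreme libraries, 2.42 to 3.28 and 0.458 to 0.906 FPKM, did not overlap. By the labels the means were 1.48 ± 0.763 FPKM in CD40LΔ5 and 1.78 ± 0.914 FPKM in WT (SD, n = 3), a log2 difference of -0.16 ± 0.31 SE with a limma adjusted p of 0.999993, smaller than the spread.

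In the sets of the table, Ccl22 was 1.05 ± 0.346 FPKM in MUT and 2.21 ± 0.595 FPKM in WT (SD, n = 3). All 3 of the first set lay below all 3 of the second, which was so for 4.79% of the 11252 genes tested. The log2(FPKM + 1) difference was -0.64 ± 0.19 SE, with an unadjusted p of 0.0124 and a limma adjusted p of 0.349, and it did not pass. At this low level the size depends on the pseudocount: the difference was -1.02 with 0.1 and -0.25 with 5, and -1.09 with voom. In bulk samples, fewer cells that express a gene and less RNA per cell cannot be told apart.

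Ccl17, the other ligand of CCR4, rests on 6 to 13 reads per library (ENSMUSG00000031780, chromosome 8, 94810453 to 94812035, plus strand). Its values were 0.84, 0.561 and 0.424 FPKM for WT replicates 1 to 3, and 0.43, 1.02 and 0.7 FPKM for CD40LΔ5 replicates 1 to 3. CD40LΔ5 replicate 2, the library lowest in Ccl22, was the highest in Ccl17, and WT replicate 3, the highest in Ccl22, was the lowest in Ccl17. The exact Poisson 95% intervals of these extremes, 0.543 to 1.74 and 0.156 to 0.923 FPKM, overlapped. A difference between single libraries was not tested, and the order of the libraries rests on few reads. The difference of the group means did not pass an exact test by the labels (0.717 ± 0.295 against 0.608 ± 0.212 FPKM in WT, SD, n = 3; exact two-sided permutation p = 0.6) or by the table (0.807 ± 0.231 in the MUT set against 0.518 ± 0.157 FPKM; exact p = 0.2). With 3 libraries against 3, such a test cannot give a p below 0.1.

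Ebi3 encodes a secreted subunit that pairs with others to form the cytokines IL-27 and IL-35 (ENSMUSG00000003206, chromosome 17, 55952623 to 55957021, plus strand). It stood at 5.66, 4.46 and 4.06 FPKM for WT replicates 1 to 3, and 3.43, 4.51 and 4.02 FPKM for CD40LΔ5 replicates 1 to 3. By the labels it was 3.98 ± 0.541 in CD40LΔ5 against 4.73 ± 0.831 FPKM in WT (SD, n = 3), a log2 difference of -0.20 ± 0.14 SE with a limma adjusted p of 0.999993, with groups that overlapped. By the table the sign turned: the MUT set held 4.88 ± 0.677 and the WT set 3.83 ± 0.353 FPKM (SD, n = 3), a log2 difference of 0.28 ± 0.11 SE with a limma adjusted p of 0.375. These sets did not overlap, as was so in this direction for 12.1% of all genes tested. An antisense gene, Gm16712, listed at 0.384 to 0.965 FPKM, overlaps Ebi3 in the files, and the library kit does not mark strand.

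The partners of Ebi3 differed widely in level. Il12a, the subunit with which Ebi3 forms IL-35, stood at 5.92 to 9.29 FPKM, whereas Il27, the partner in IL-27, was at 0 to 0.36 FPKM on at most 10 reads. Il12a reached 9.29 FPKM in WT replicate 1 and 9.12 FPKM in both WT replicate 2 and CD40LΔ5 replicate 2, above WT replicate 3 (6.51) and CD40LΔ5 replicates 1 (7.91) and 3 (5.92), as Ebi3 did (log2 difference of 0.40 ± 0.11 SE by the table, limma adjusted p = 0.343, and -0.11 ± 0.18 SE by the labels). Il27ra, a chain of the receptor of IL-27, had values of 22.4 to 32.9 FPKM and a difference of 0.30 ± 0.10 SE by the table (adjusted p = 0.352) and 0.06 ± 0.15 SE by the labels. Neither passed.

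Il4i1, a secreted oxidase of aromatic amino acids that was found as a gene induced by interleukin 4, was the most abundant of the 10 (ENSMUSG00000074141, chromosome 7, 44816370 to 44840809, plus strand). Its values were 116, 164 and 163 FPKM for WT replicates 1 to 3, and 154, 129 and 134 FPKM for CD40LΔ5 replicates 1 to 3, on 6797 to 10353 reads. WT replicate 1 and CD40LΔ5 replicate 2 were lowest, 1 library of each label. The means were 139 ± 13.5 in CD40LΔ5 against 148 ± 27.6 FPKM in WT by the labels (SD, n = 3; log2 difference -0.07 ± 0.16 SE) and 136 ± 25.0 in the MUT set against 150 ± 14.99 FPKM by the table (log2 difference -0.15 ± 0.15 SE), both within the spread. In GENCODE M21, 83.9% of the 4080 exon bases of Il4i1 are shared with Tbc1d17, a protein-coding gene on the opposite strand. The deposited length of Il4i1 is 2301 bases, so this share need not hold for the bases that were counted. The span that the deposited table lists for Tbc1d17 (44840901 to 44849079, 26.3 to 34.1 FPKM) starts after the end listed for Il4i1. The kit does not mark strand, so reads of either from shared bases cannot be told apart. The span listed for Il4i1 overlaps Nup62 on the same strand (20.1 to 27.9 FPKM) and Atf5 on the other (4.30 to 5.83 FPKM), and how reads were divided among them is not given in the sources used here.

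Tnfrsf9, also named CD137, is a costimulatory receptor of activated lymphocytes (ENSMUSG00000028965, chromosome 4, 150914562 to 150946102, plus strand). It stood at 0.611, 0.369 and 0.463 FPKM for WT replicates 1 to 3, and 0.226, 1.05 and 0.577 FPKM for CD40LΔ5 replicates 1 to 3, on 13 to 55 reads. The highest and the lowest library both carried the CD40LΔ5 label, 4.63-fold apart, with exact Poisson 95% intervals of 0.789 to 1.36 and 0.12 to 0.387 FPKM. No difference between groups exceeded this spread (exact two-sided permutation p = 0.8 by the labels, n = 3, and 0.4 by the table). Its ligand Tnfsf9 was also low, at 0.589 to 1.14 FPKM. Camta1, on the other strand, overlaps Tnfrsf9 in the files in span (1.40 to 1.98 FPKM), but in GENCODE M21 they share 0 exon bases. T and NK cells carry Tnfrsf9 too. The 9 T cell markers summed to 40.8 to 54.3 FPKM over the libraries and the 6 NK cell markers to 19.3 to 50.8 FPKM, with the highest NK cell sum in CD40LΔ5 replicate 2, where Tnfrsf9 was highest; the part of these cells in the values was not tested.

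Icam1 is the adhesion molecule that binds the integrin LFA-1 on T cells (ENSMUSG00000037405, chromosome 9, 21015960 to 21028797, plus strand). It was among the steadiest of the 10, at 23.7, 24.1 and 25.8 FPKM for WT replicates 1 to 3, and 27.9, 26.2 and 21.4 FPKM for CD40LΔ5 replicates 1 to 3. The libraries labelled CD40LΔ5 held both the highest and the lowest value. The log2 difference was 0.03 ± 0.11 SE by the labels and -0.01 ± 0.11 SE by the table (limma adjusted p = 0.999993 and 0.969). The chains of LFA-1, Itgal and Itgb2, stood at 55.9 to 65.5 and 62.0 to 70.5 FPKM in the same libraries.

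Tnfaip3 encodes A20, a ubiquitin-editing enzyme that NF-kB induces and that restrains NF-kB (ENSMUSG00000019850, chromosome 10, 19000910 to 19015657, minus strand). Its values were 10.01, 7.26 and 9.42 FPKM for WT replicates 1 to 3, and 10.6, 10.1 and 8.35 FPKM for CD40LΔ5 replicates 1 to 3, on 1094 to 1784 reads. WT replicate 2 was the lowest and CD40LΔ5 replicate 1 the highest, and the groups overlapped in both arrangements. The log2 difference was 0.12 ± 0.14 SE by the labels and -0.05 ± 0.14 SE by the table (limma adjusted p = 0.999993 and 0.890). Of the proteins that act with A20, Tnip1 (24.4 to 29.8 FPKM), Tax1bp1 (59.5 to 73.4) and Itch (21.5 to 27.2) stood above Tnfaip3 in level per length, and the range of Rnf11 (6.32 to 8.13 FPKM) overlapped that of Tnfaip3.

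Pim1 is a serine/threonine kinase that favours growth and survival downstream of cytokine and NF-kB signals (ENSMUSG00000024014, chromosome 17, 29490812 to 29496111, plus strand). It stood at 23.9, 33.7 and 40.1 FPKM for WT replicates 1 to 3, and 35.3, 20.9 and 32.4 FPKM for CD40LΔ5 replicates 1 to 3. WT replicate 1 and CD40LΔ5 replicate 2 were again the lowest. The labels gave 29.5 ± 7.66 in CD40LΔ5 against 32.6 ± 8.16 FPKM in WT (SD, n = 3; log2 difference -0.14 ± 0.25 SE). The table gave 26.2 ± 6.74 in the MUT set against 35.9 ± 3.85 FPKM in the WT set (SD, n = 3), a log2 difference of -0.47 ± 0.18 SE with an unadjusted p of 0.0322 and a limma adjusted p of 0.356, where WT replicate 2 of the first set exceeded CD40LΔ5 replicate 3 of the second. Its relatives Pim2 (21.5 to 25.8 FPKM) and Pim3 (10.1 to 14.8 FPKM) had differences of 0.02 ± 0.09 SE and 0.09 ± 0.15 SE by the table, and -0.01 ± 0.09 SE and -0.01 ± 0.16 SE by the labels. Opposite-strand genes overlap Pim1 (Gm26885, at most 0.0487 FPKM) and Icam1 (Gm20603, at most 0.0472 FPKM).

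Gadd45b is a stress-response protein that binds kinases of the p38 and JNK pathways (ENSMUSG00000015312, chromosome 10, 80930091 to 80932204, plus strand). Its values, 24.6, 38.1 and 36.6 FPKM for WT replicates 1 to 3, and 37.5, 25.8 and 34.4 FPKM for CD40LΔ5 replicates 1 to 3, fell into 4 libraries between 34.4 and 38.1 FPKM and a low pair, WT replicate 1 and CD40LΔ5 replicate 2. This pair has 1 library of each label but both belong to the MUT set. The log2 difference was -0.01 ± 0.21 SE by the labels and -0.31 ± 0.16 SE by the table (limma adjusted p = 0.435), where WT replicate 2, also of the MUT set, was the highest of all. Its relatives did not share this order: Gadd45a stood at 5.25 to 7.46 FPKM with its lowest value in CD40LΔ5 replicate 3, and Gadd45g, at 19.1 to 33.9 FPKM, was highest in WT replicate 3.

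Batf, an AP-1 factor that B cells need for class switching, was steady at 15.8, 17.6 and 15.4 FPKM for WT replicates 1 to 3, and 17.8, 14.1 and 17.1 FPKM for CD40LΔ5 replicates 1 to 3 (ENSMUSG00000034266, chromosome 12, 85686669 to 85709087, plus strand). The lowest was again CD40LΔ5 replicate 2. The log2 difference was -0.08 ± 0.10 SE by the table, and by the labels the means were 16.3 ± 1.96 FPKM in CD40LΔ5 and 16.3 ± 1.16 FPKM in WT (SD, n = 3). Of the factors that bind DNA with Batf, Irf4 stood at 32.3 to 39.0, Irf8 at 150 to 174 and Junb at 45.8 to 78.2 FPKM. Batf3, a close relative, was low (0.56 to 1.87 FPKM). It was higher in every library averaged as MUT than in those averaged as WT, as were 12.1% of all genes tested. The log2 difference of 0.65 ± 0.14 SE did not pass (limma adjusted p = 0.343). By the labels it was -0.27 ± 0.27 SE.

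By the labels, 0 of the 8 tested genes passed an adjusted p of 0.05 in the limma fit, against 0% of all 11252 genes. At an unadjusted p under 0.05 there were again 0 of the 8, against 1.24% of all genes, and voom, run on recovered reads, called 0 genes as well. Values were lower in CD40LΔ5 for 6 of the 8 and higher for 2, and the median log2 difference was -0.04, against 0.01 over all genes tested. Of all genes tested, 44.5% were lower in CD40LΔ5. The labelled groups overlapped in all 10 genes, whereas 2.98% of all genes tested had every CD40LΔ5 library above every WT library and 1.32% had every one below. With the libraries grouped as in the table of means, 0 of the 8 passed, against 0.0267% of all genes. At an unadjusted p under 0.05 there were 3 of the 8, Ccl22 and Pim1 with lower and Ebi3 with higher values in the MUT set, against 13% of all genes. The MUT set was lower for 7 of the 8 and higher for 1, with a median of -0.12, against 0.05 over all genes. Of all genes tested, 38% were lower in the MUT set.

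**Figure D2:**
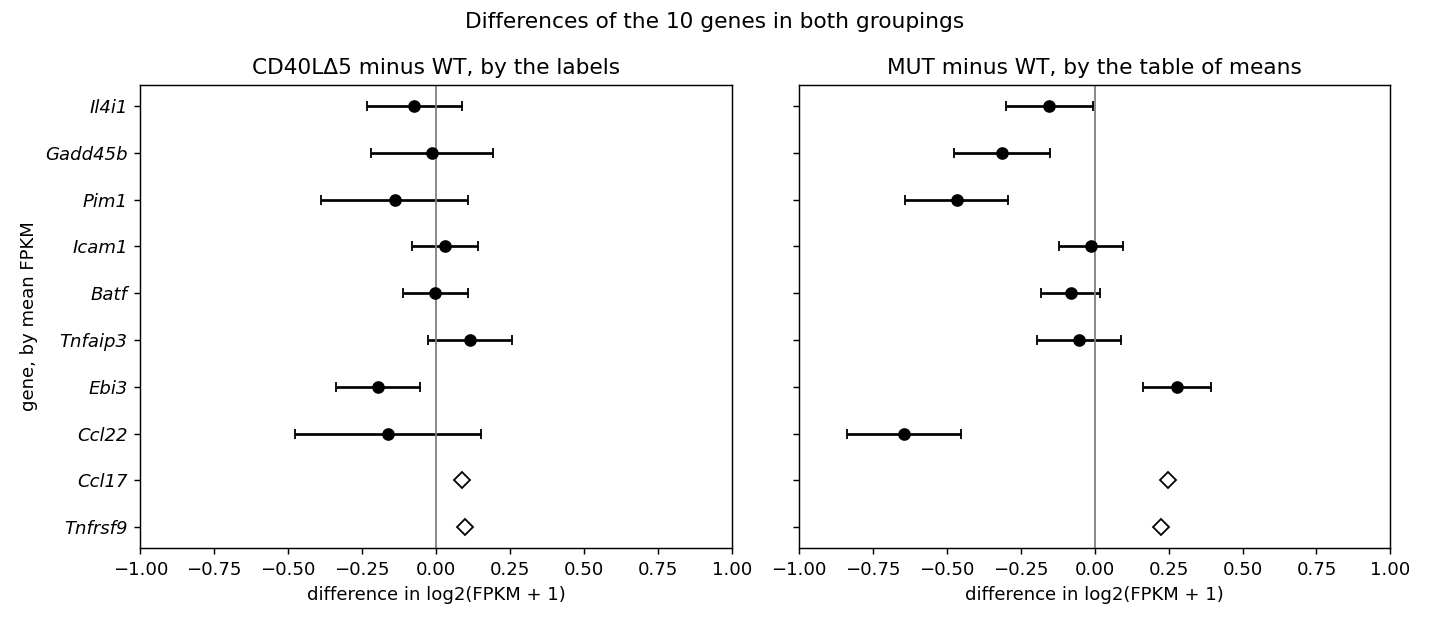
Differences in log2(FPKM + 1) for the 10 genes, CD40LΔ5 minus WT by the labels (left) and MUT minus WT by the authors' table of means (right). Filled points carry the limma standard error, and open points (Ccl17 and Tnfrsf9) were compared by an exact permutation test; Ccl22 lies at -0.64 and Pim1 at -0.47 by the table, an order that turns with a pseudocount of 5 (-0.25 and -0.41).

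**Figure D3:**
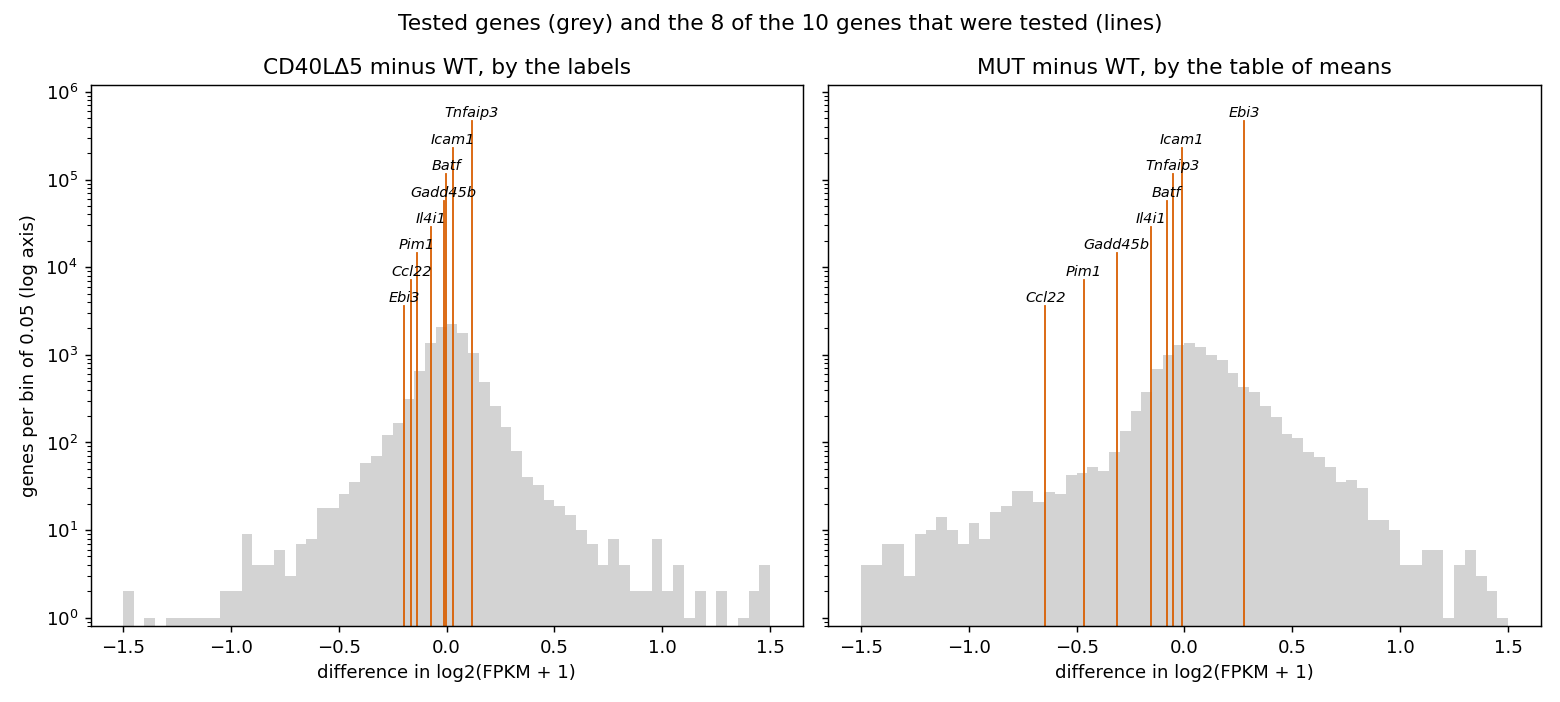
Number of tested genes per bin of 0.05 of the log2(FPKM + 1) difference (grey, log axis, 11252 genes, of which those beyond 1.5 in size are not drawn), with lines at the 8 tested genes of the 10. By the labels they fall between -0.20 and 0.12, and by the table between -0.64 (Ccl22) and 0.28 (Ebi3).

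The 10 genes did not rise and fall together over the libraries. Il4i1, Gadd45b and Pim1 had WT replicate 1 and CD40LΔ5 replicate 2 as their lowest pair. Ccl17 and Tnfrsf9 had the same libraries as their highest pair, on few reads. Ebi3 was highest in WT replicate 1, and Tnfaip3 and Icam1 were highest in CD40LΔ5 replicate 1. Each library but CD40LΔ5 replicate 3 was the highest for at least 1 of the genes, and CD40LΔ5 replicate 1 for 3 of them. On the log2(FPKM + 1) scale, the spread over the 6 libraries was larger for Ccl22 than for 91.7% of the genes tested, for Pim1 than for 88.0% and for Gadd45b than for 82.1%, but for Icam1 and Batf only than for 41.3% and 38.1%.

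Germinal centre marker levels differed between the libraries in an arrangement shared with some of the 10 genes. The 9 germinal centre markers examined summed to 47.3 to 198 FPKM, with the lowest sums in WT replicate 1 and CD40LΔ5 replicate 2, and the plasma cell markers summed to 1123 to 4981 FPKM with the same pair lowest. These were the lowest libraries of Il4i1, Gadd45b and Pim1 as well. The sums spanned 47.3 to 185 FPKM in WT and 63.9 to 198 FPKM in CD40LΔ5 for germinal centre markers by the labels, and 47.3 to 150 and 114 to 198 FPKM in the MUT and WT sets by the table. By the table, all 9 germinal centre markers had lower values in the MUT set, against 38% of all genes tested. Every MUT library lay below every WT library for 1 of the 9, against 4.79% of all genes, and 0 passed. By the labels 8 of the 9 were higher in CD40LΔ5, against 55.5% of all genes tested, and 0 passed. The part of these markers in the differences of Pim1, Gadd45b and Ccl22 was not tested.

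Markers of other cells that can make these products were also present. Dendritic cells are a known source of Ccl17 and Ccl22, and all 10 of their markers were detected in every library, 4 of them at a mean above 1 FPKM besides the B cell-expressed Ccr7. Their sum ran from 75.4 to 100 FPKM, most of it Ccr7 at 61.3 to 90.6 FPKM, while Xcr1 (0.0413 to 0.259 FPKM) and Clec9a (0.0771 to 0.55 FPKM) were near 0. The sum overlapped between the labelled groups (75.4 to 95.2 FPKM in CD40LΔ5 and 76.2 to 100 FPKM in WT) and between the sets of the table (77.2 to 100 and 75.4 to 86.0 FPKM). Of the 5 dendritic cell markers tested, 3 were higher and 2 lower in the MUT set (median 0.16), and by the labels 1 was higher and 4 lower in CD40LΔ5 (median -0.09). Fscn1, in this list as a marker of mature dendritic cells and also induced by CD40, was 1 of the 2 lower in the MUT set, as Ccl22 was: 2.43, 2.54 and 2.002 FPKM in the MUT set and 3.96, 3.07 and 3.30 FPKM in the WT set (log2 difference -0.42 ± 0.12 SE; limma adjusted p = 0.346), with -0.07 ± 0.20 SE by the labels. The 9 macrophage markers summed to 122 to 342 FPKM with the highest sum in WT replicate 1, where Ebi3 was highest. The 8 neutrophil markers summed to 41.8 to 514 FPKM, with the highest sums in CD40LΔ5 replicate 3 and WT replicate 3, the libraries highest in Ccl22. Other libraries broke this order. CD40LΔ5 replicate 1 had the lowest neutrophil sum, with Ccl22 at 1.64 FPKM. CD40LΔ5 replicate 2 had a sum of 73.8 FPKM and the lowest Ccl22 (0.654 FPKM). The part of dendritic cells, macrophages and neutrophils in the values was not tested.

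**Figure D4:**
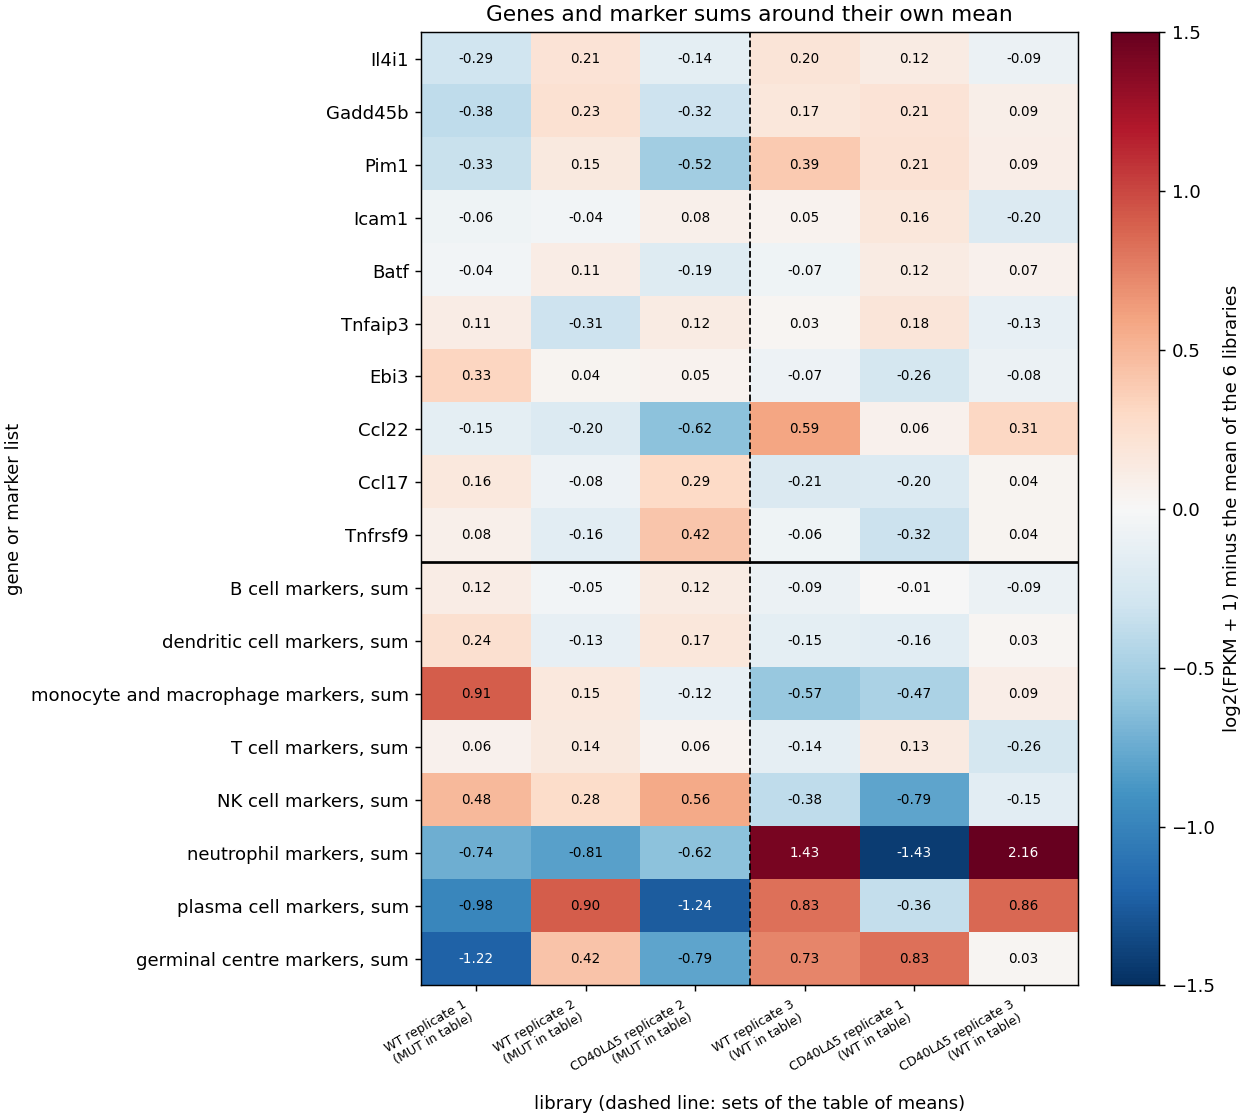
Log2(FPKM + 1) of each of the 10 genes, and of the summed FPKM of 8 marker lists, minus the mean of the 6 libraries (colour, which saturates at 1.5 in either direction, and printed number), with the libraries in the order of the authors' table (dashed line between its sets). Pim1, Gadd45b and Il4i1 are below their mean in WT replicate 1 and CD40LΔ5 replicate 2, as are the germinal centre and plasma cell sums.

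The pathway upstream of the 10 genes was expressed throughout. Of 22 genes of the CD40 receptor, the TRAF adaptors and NF-kB, 21 were tested and 0 passed in either grouping, against 0% of all genes by the labels and 0.0267% by the table. Cd40 itself stood at 48.6, 45.9 and 34.3 FPKM for WT replicates 1 to 3, and 40.2, 49.5 and 38.0 FPKM for CD40LΔ5 replicates 1 to 3. The values of the MUT set lay above those of the WT set (log2 difference 0.35 ± 0.08 SE, limma unadjusted p = 0.00394, adjusted p = 0.343), while by the labels the difference was -0.01. Sets apart in this direction were found for 12.1% of all genes tested. Cd40lg, the gene of the ligand, was read only 4 to 17 times per library and was too low for the fit. It stood at 0.533, 0.428 and 0.483 FPKM in the MUT set and 0.203, 0.118 and 0.143 FPKM in the WT set. This difference rests on few reads and was not tested. Of the 8 T cell markers tested, 8 were higher in the MUT set, against 62% of all genes tested. The sum of the 9 T cell markers overlapped between the sets (51.1 to 54.3 and 40.8 to 53.8 FPKM), unlike the Cd40lg values. By the labels 7 of the 8 were lower in CD40LΔ5, against 44.5% of all genes tested. The part of T cells in Cd40lg was not tested. In the sets of the table, 17 of the 21 were higher and 4 lower in the MUT set, with a median of 0.08. Over all genes the median was 0.05 and 62% were higher. By the labels 13 of the 21 were higher and 8 lower in CD40LΔ5.

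Among 40 other genes known to be induced through CD40 or NF-kB, 35 were tested and 0 passed in either grouping. Over all genes tested, 0% passed by the labels and 0.0267% by the table. In the sets of the table, 20 were higher and 15 lower in the MUT set (median 0.03), with differences from -0.67 (Fas, a death receptor of activated and germinal centre B cells) to 0.60 (Vcam1, which macrophages also express). Every MUT library lay above every WT library for 3 of the 35, against 12.1% of all genes tested. Every one lay below for 2, against 4.79%. Cd69, an early activation antigen, was 22.0, 23.1 and 24.9 FPKM in the MUT set and 19.9, 20.8 and 20.4 FPKM in the WT set (log2 difference 0.18 ± 0.07 SE; limma adjusted p = 0.371; 0.02 ± 0.11 SE by the labels). Ccl3, a chemokine of activated B cells, was also higher in the MUT set, at 1.89, 1.18 and 2.10 against 1.09, 1.06 and 0.515 FPKM (log2 difference 0.53 ± 0.20 SE; adjusted p = 0.356; -0.15 ± 0.29 SE by the labels). Ltb, the lymphotoxin subunit that was most abundant in the list, stood at 336 to 515 FPKM with a difference of 0.13 ± 0.16 SE by the table and -0.01 ± 0.18 SE by the labels. By the labels 14 were higher and 21 lower in CD40LΔ5 (median -0.03).

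Receptors and partners of the 10 genes gave 23 tested of 27, with 0 passing in either grouping. Over all genes tested, 0% passed by the labels and 0.0267% by the table. Of the 23, 13 were higher and 10 lower in the MUT set by the table (10 higher and 13 lower in CD40LΔ5 by the labels). Ccr4, the receptor of both chemokines, was at 0.0562 to 0.231 FPKM. Of 20 close relatives, 19 were found, 14 were tested and 0 passed, with 10 higher and 4 lower in the MUT set by the table and 4 higher and 10 lower in CD40LΔ5 by the labels. Over all genes tested, 62% were higher in the MUT set and 44.5% lower in CD40LΔ5. Every MUT library lay above every WT library for 5 of the 14 relatives, against 12.1% of all genes tested. By the table, 4 of the 14 had a limma unadjusted p under 0.05, all higher in the MUT set, against 13% of all genes. Map2k7, a JNK pathway kinase that Gadd45b can bind, had a difference of 0.27 ± 0.09 SE by the table (adjusted p = 0.356) and 0.04 ± 0.14 SE by the labels.

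For each tested gene of the 10, the genes closest in pattern were found by the root mean square difference of centred log2(FPKM + 1) over the 6 libraries, among 10022 genes. This is a description over few libraries, in which close matches are common. Gadd45b was closest to Cd83 (0.0352), an activation marker that CD40 also induces, at 119, 192 and 189 FPKM for WT replicates 1 to 3, and 183, 129 and 168 FPKM for CD40LΔ5 replicates 1 to 3. Pim1 was closest to Kpna2, a nuclear import factor of dividing cells (0.0433), followed by Dstn (0.0681) and Mcm5, a subunit of the replicative helicase (0.0686). Il4i1 was closest to Cenpl (0.0214) and Ndc80 (0.0408), both of the kinetochore, followed by Pcna, the replication clamp (0.0531). Ccl22 had its closest match in Lypd8 (0.120), followed by Hyou1, a chaperone of the endoplasmic reticulum (0.127), and its larger distances come with its larger spread. Tnfaip3 was closest to Foxo1 (0.0348), a transcription factor of resting and dark zone B cells. Armc7 (0.0415) and Tlr9, the receptor for unmethylated DNA (0.0423), followed. Icam1 was closest to Myo1g (0.0110), a myosin of lymphocyte membranes, Ebi3 to Bloc1s5 (0.0457) and Batf to Lysmd4 (0.0237).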

How the data were processed

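Libraries were made from total RNA with a TruSeq kit, per the labels' protocols. CASAVA 1.8.2, STAR, DESeq2 and the build mm9 are listed, with no role, in the submitters' processing notes. How reads were counted, and on which annotation, was not stated. The coordinates in the files are printed as deposited: 4 of the 10 genes have exactly the GENCODE M21 (GRCm38) span. The others differ slightly, as for Pim1, which starts at 29490812 as deposited and at 29490753 in GENCODE M21. The deposited coordinates are thus on GRCm38, although mm9 is the build listed. The authors deposited FPKM per gene and library, a gene length column, and mean FPKM of 2 sets; the libraries in each set were found by recomputing its means (largest deviation 3.33e-08 FPKM). FPKM times length gave whole reads for 100% of values (tolerance 0.01 reads). The main test was limma 3.58.1 (R 4.3.3) on log2(FPKM + 1), with a variance trend, two-sided, with Benjamini-Hochberg adjustment over the 11252 genes that averaged 1 FPKM or more. That scale understates changes of low genes. Ccl17 and Tnfrsf9 were compared by an exact permutation test of mean FPKM. The procedure was tested on simulated data. The 10 genes and all lists were chosen with earlier results of these data known. Besides the 10 genes, the rule names Cd40lg and Cd40, up to 3 genes per list by smallest p or highest level, and the 3 closest in pattern, without immunoglobulin and predicted genes; other relatives and partners were named for their role, and Fas and Vcam1 as extremes after their values were seen. Alternatives changed the pseudocount, filter, scaling or variance setting, or used voom, a replicate block and leaving out each library. Motifs were searched in RefSeq promoters (GRCm38.p6), where all 10 genes had an entry.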

Additional observations from a re-analysis of the deposited data

How the results depend on the processing

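None of the tested genes among the 10 passed under any alternative run, in either grouping. By the labels the number of genes called stayed at 0 under every alternative. By the table it was 3, and 5 with a pseudocount of 0.1, 1 without a filter, 0 with a filter of 5 FPKM, 6 with median-ratio scaling, 6 with robust variances and 1 with voom. With any single library left out it lay between 1 and 16, with 13 without WT replicate 2, 16 without CD40LΔ5 replicate 1 and 1 without CD40LΔ5 replicate 2; the causes were not tested. Batf by the labels turned to 0.0068 with voom. Leaving out 1 library turned the sign by the labels in 9 of the 10 genes: the log2 differences ranged from -0.36 to 0.11 for Ccl22, -0.037 to 0.21 for Ccl17, -0.24 to 0.011 for Il4i1, -0.0091 to 0.21 for Tnfaip3, -0.088 to 0.28 for Tnfrsf9, -0.34 to 0.085 for Pim1, -0.045 to 0.14 for Icam1, -0.21 to 0.14 for Gadd45b and -0.063 to 0.095 for Batf. Ebi3 kept its sign (-0.28 to -0.08). By the table the sign turned for Tnfaip3 (-0.13 to 0.087) and Icam1 (-0.12 to 0.067). It was kept for the others, with -0.78 to -0.50 for Ccl22, -0.66 to -0.32 for Pim1, 0.18 to 0.33 for Ebi3, 0.16 to 0.35 for Ccl17, -0.51 to -0.20 for Gadd45b (lowest adjusted p 0.103 in limma), -0.29 to -0.045 for Il4i1, -0.16 to -0.0053 for Batf and 0.071 to 0.36 for Tnfrsf9. All of these but Ccl22 and Pim1 moved by more than 1.5 times from the value with every library, and none was called. The scalings moved the median of all genes by less than 0.1. A filter of 5 FPKM leaves out Ccl22 and Ebi3 as well as Ccl17 and Tnfrsf9. Replicate numbers are shared by the labelled groups, and the deviations of same-numbered libraries had correlations of -0.38, 0.06 and 0.38. Those of differently numbered libraries ran from -0.63 to 0.56. So few values cannot show whether same-numbered libraries were handled together. With the replicate block the count of genes called by the labels was 0 too. No such fit was made for the sets of the table, whose numbers do not pair. Depth limits Ccl17 most, at 6 to 13 reads.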
